A study of Drosophila melanogaster with 4 samples.

Results

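Chromatin contacts of 43 developmental transcription factor genes were compared between BG3, a Drosophila melanogaster line with neuronal features that was established from larval brain tissue and ventral nerve cord, and Kc167, a line of embryonic origin. The genes were taken from a list of transcription factors known as Polycomb targets outside the Hox complexes. For each gene the width of the TAD that holds its 5' end, the distance from the 5' end to the nearest TAD border, and the chromatin loops with an anchor in the gene or within 2 kb of it were read from the deposited lists. They were 43 of 13945 protein-coding genes on the 6 chromosome arms, which left 13902 other genes to set them against. BG3 is a male line and Kc167 a female one, and the authors left the sex chromosomes out of their analysis for that reason. Here the other genes include those of the X, whereas all members are autosomal, and shares without the X were not taken. Of the 43, 9 lay on arm 2L, 10 on 2R, 12 on 3L and 12 on 3R, and neighbours less than 100 kb apart reduced them to 30 separate loci. Both lines carried no treatment, and each line had 2 biological replicates of in situ Hi-C with the enzyme DpnII, which the authors merged into 1 map per line before calling TADs and loops. With 1 map per line there was no spread between replicates, so no difference below was tested, and each is given as counts, medians and ranges. The files hold contacts alone, so neither the Polycomb state of the genes nor the identity of the lines could be checked against expression or histone marks.

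Polycomb group proteins keep developmental regulators silent outside the cells that need them, by modifying histones and compacting chromatin over domains that can span a gene and its flanks. Many of these regulators stand in gene-poor neighbourhoods rich in regulatory elements, and some are pairs of related genes that share enhancers. A TAD is a stretch of chromosome whose parts contact each other more than they contact their surroundings, its ends are called borders, and a loop is a pair of short segments, the anchors, that meet more often than the segments around them.

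The stretches below come from anchors of loops that joined 2 members, or that had the same anchors in both maps, and they show the DNA of the contact points that the results turn on. They are 200-base stretches of the dm6 assembly (RefSeq), plus strand, free of annotated exons. Capitals mark GAGAG or its reverse complement CTCTC, the core bound by GAGA factor, and GCCAT or its reverse complement ATGGC, the core bound by Pho, both of which are known to recruit Polycomb complexes in flies. Within each anchor the stretch with the most matches was taken, so the number of matches shown is no result.
knrl end of the knrl to kni loop in BG3, chr3L:20620724-20620923: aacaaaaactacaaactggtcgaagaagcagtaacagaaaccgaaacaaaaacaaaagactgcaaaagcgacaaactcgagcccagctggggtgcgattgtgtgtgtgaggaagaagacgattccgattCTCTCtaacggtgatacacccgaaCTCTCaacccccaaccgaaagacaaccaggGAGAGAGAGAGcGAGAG
kni end of the knrl to kni loop in BG3, chr3L:20695495-20695694: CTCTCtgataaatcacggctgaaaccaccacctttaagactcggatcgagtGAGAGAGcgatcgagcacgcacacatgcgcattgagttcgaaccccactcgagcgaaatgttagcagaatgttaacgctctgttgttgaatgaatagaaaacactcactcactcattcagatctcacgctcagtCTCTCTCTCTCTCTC
GATAe end of the GATAe to pnr loop in BG3, chr3R:16013797-16013996: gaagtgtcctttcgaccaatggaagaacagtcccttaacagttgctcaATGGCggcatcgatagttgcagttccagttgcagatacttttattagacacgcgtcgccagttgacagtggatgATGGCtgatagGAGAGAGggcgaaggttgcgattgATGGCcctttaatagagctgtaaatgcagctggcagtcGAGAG
pnr end of the GATAe to pnr loop in BG3, chr3R:16035496-16035695: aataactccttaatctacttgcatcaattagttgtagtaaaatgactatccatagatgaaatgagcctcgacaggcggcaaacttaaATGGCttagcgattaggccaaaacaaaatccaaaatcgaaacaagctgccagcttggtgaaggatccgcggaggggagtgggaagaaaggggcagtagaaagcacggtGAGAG
far anchor of the croc loop in both maps, chr3L:21458692-21458891: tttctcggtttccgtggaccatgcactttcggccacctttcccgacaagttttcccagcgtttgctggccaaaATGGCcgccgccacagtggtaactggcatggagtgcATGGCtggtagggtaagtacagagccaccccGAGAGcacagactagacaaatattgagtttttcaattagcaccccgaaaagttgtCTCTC
wor end of the esg to wor loop in Kc167, chr2L:15426753-15426952: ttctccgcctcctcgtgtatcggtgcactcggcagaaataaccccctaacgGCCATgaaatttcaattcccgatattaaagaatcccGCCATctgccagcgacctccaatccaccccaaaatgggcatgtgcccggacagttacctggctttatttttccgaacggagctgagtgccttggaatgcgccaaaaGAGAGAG

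The knrl and kni stretches were centred 0.164 kb and 0.216 kb upstream of the 2 genes, and both held runs of GAGAG matches and no GCCAT match. The GATAe stretch lay in an intron of GATAe and the pnr stretch in an intron of pnr, and each held both motifs. The wor stretch was centred 1.27 kb upstream of wor. Both motifs were common: 21.4% of all 200-base tiles of the arms held GAGAG and 35.3% held GCCAT on either strand. Over whole 2-kb anchors of member loops the median was 3 GAGAG matches in BG3 and 3 in Kc167, against 3 in other loop anchors of each map and 2 in bins that were no anchor. For GCCAT it was 5 in BG3 and 6 in Kc167, against 5 in other anchors of each map and 4 in the bins. The anchors of the members' loops thus held about as many matches as other anchors, and a match is no sign that a factor was bound.

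Loop anchors were found at a larger share of these genes than of other genes in both lines. In BG3, 21 of the 43 (48.8%) had a loop anchor in the gene or within 2 kb, against 15.3% of other genes. In Kc167 the number was 26 (60.5%), against 22.2% of other genes. Loops were present in both maps at 16 members, against 8.03% of other genes, at 5 members in BG3 only, against 7.22%, and at 10 in Kc167 only, against 14.2%. The 12 members without a loop in either map were H15, mid, unpg, otp, Rx, hbn, Kr, bin, toe, Sox21b, Dr and tll. The Kc167 list was the longer one, with 1409 loops against 865 in BG3, and the Kc167 map rests on more read pairs, whose part in the difference between the lines was not tested.

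Longer genes had a loop more often, and the members were long, with a median of 8.86 kb against 2.16 kb for other genes. Among genes under 5 kb, 6 of 15 members had a loop in BG3 and 11 of 15 in Kc167, against 11.7% and 16.8% of other genes of that length. From 5 to 15 kb the counts were 4 of 13 in BG3 and 6 of 13 in Kc167, against 17.3% and 29.0%. At 15 kb or more they were 11 of 15 in BG3 and 9 of 15 in Kc167, against 39.7% and 53.9%. The members' share was above that of other genes in each length class of both maps, but in the longest genes of Kc167 it was close to it, 60% against 53.9%. Each class held only 13 or 15 members, so that single genes shift these shares. Counting only anchors within 2 kb of the 5' end, 10 members had a loop in BG3, against 9.16% of other genes, and 15 in Kc167, against 13.0%. The length classes were chosen after the values were seen.

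**Figure D1:**
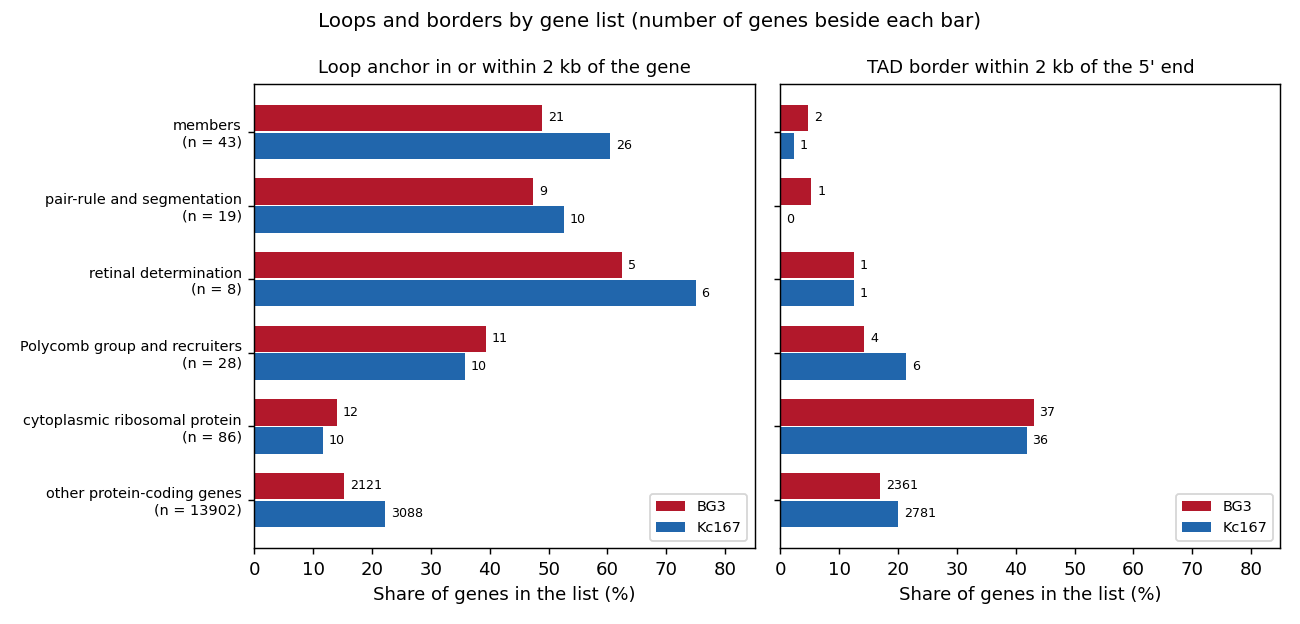
Share of genes, in percent, with a loop anchor in or within 2 kb of the gene (left) and with a TAD border within 2 kb of the 5' end (right), for the 43 members, 4 comparison lists and all 13902 other protein-coding genes; red bars are BG3, blue bars Kc167, and the number beside a bar is the number of genes. The members' bars stand at 48.8% and 60.5% for loops, and at 2 genes and 1 gene for borders.

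Borders were scarce at the 5' ends. In BG3 a border lay within 2 kb of 2 members, E5 and ind, against 17.0% of other genes, and in Kc167 within 2 kb of 1 member, mid, against 20% of other genes. For stringent borders the counts were 1 member in BG3, against 6.06% of other genes, and 0 in Kc167, against 10.5%. The E5 border, at 3R:13874246, was 670 bp from the 5' end, was also in the stringent list, and the nearest Kc167 border was 34499 bp from it. The ind border, at 3L:15045386, was 1462 bp away, with the nearest Kc167 border 4695 bp from it. The mid border, at 2L:5460522, was 1117 bp away, with the nearest BG3 border 4244 bp from it. None of the 3 was therefore a border that both maps placed at 1 site. A border fell inside the gene body of 6 members in BG3 (mid, otp, Rx, hth, E5 and pnr), against 8.80% of other genes, and of 3 in Kc167 (otp, dsx and ss), against 10.1%. The members were longer, with a median of 8.86 kb against 2.16 kb, and the part of gene length in these counts was not tested.

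The 5' ends of the members stood farther from borders than those of other genes. The median distance was 17.6 kb in BG3, against 11.7 kb for other genes, and 16.2 kb in Kc167, against 9.13 kb. The TADs themselves had a median width of 68.1 kb for members and 65.2 kb for other genes in BG3, and of 65.4 kb for members and 49.1 kb for other genes in Kc167. In BG3 the members' TADs were thus about as wide as those of other genes, and in Kc167 they were wider by the median, an order that turned among gene-poor TADs. From the nearer end of the TAD the 5' end stood at a median of 0.258 of the TAD width in BG3, against 0.210 for other genes, and 0.264 in Kc167, against 0.204. In the stringent list, where TADs are wider, the median width was 151 kb for members and 237 kb for other genes in BG3, and 178 kb for members and 141 kb for other genes in Kc167, so that its order in BG3 was the opposite one. The stringent distance was likewise shorter for members in BG3, 36.8 kb against 50.6 kb, and longer in Kc167, 32.2 kb against 27.0 kb.

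**Figure D2:**
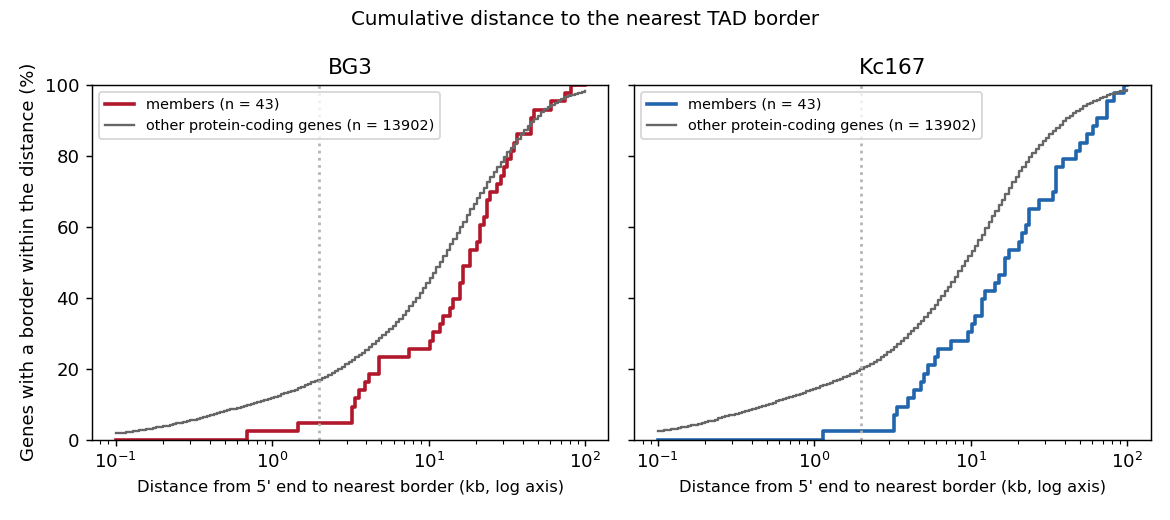
Cumulative share of genes, in percent, with the nearest TAD border within the distance on the log axis (kb), for BG3 (left) and Kc167 (right); the coloured line is the 43 members, the grey line the 13902 other protein-coding genes, and the dotted line marks 2 kb. The members' line starts later and passes the middle at 17.6 kb in BG3 and 16.2 kb in Kc167, against 11.7 kb and 9.13 kb.

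The neighbourhoods were gene-poor. The TADs of members held a median of 5.97 gene starts per 100 kb in BG3, against 17.0 for other genes, and 5.81 in Kc167, against 18.3. The median number of protein-coding genes in the TAD was 4 for members and 11 for other genes in BG3, and 3 for members and 9 for other genes in Kc167. Other genes in TADs as sparse as the sparser members' TADs had a border within 2 kb at 21.4% in BG3 and 22.8% in Kc167, and a loop at 22.2% in BG3 and 30.5% in Kc167. The members in such TADs had a border at 1 of 22 in BG3 and 1 of 23 in Kc167, and a loop at 13 of 22 in BG3 and 14 of 23 in Kc167. Their median TAD width was 70.5 kb in BG3, against 75.8 kb for other genes in sparse TADs, and 59.5 kb in Kc167, against 79.2 kb, so that among sparse TADs the members' TADs were the narrower ones in both maps. The part of gene density in the members' values was not tested. The limit between sparse and dense TADs, the members' own median, was set after the values were seen.

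**Figure D3:**
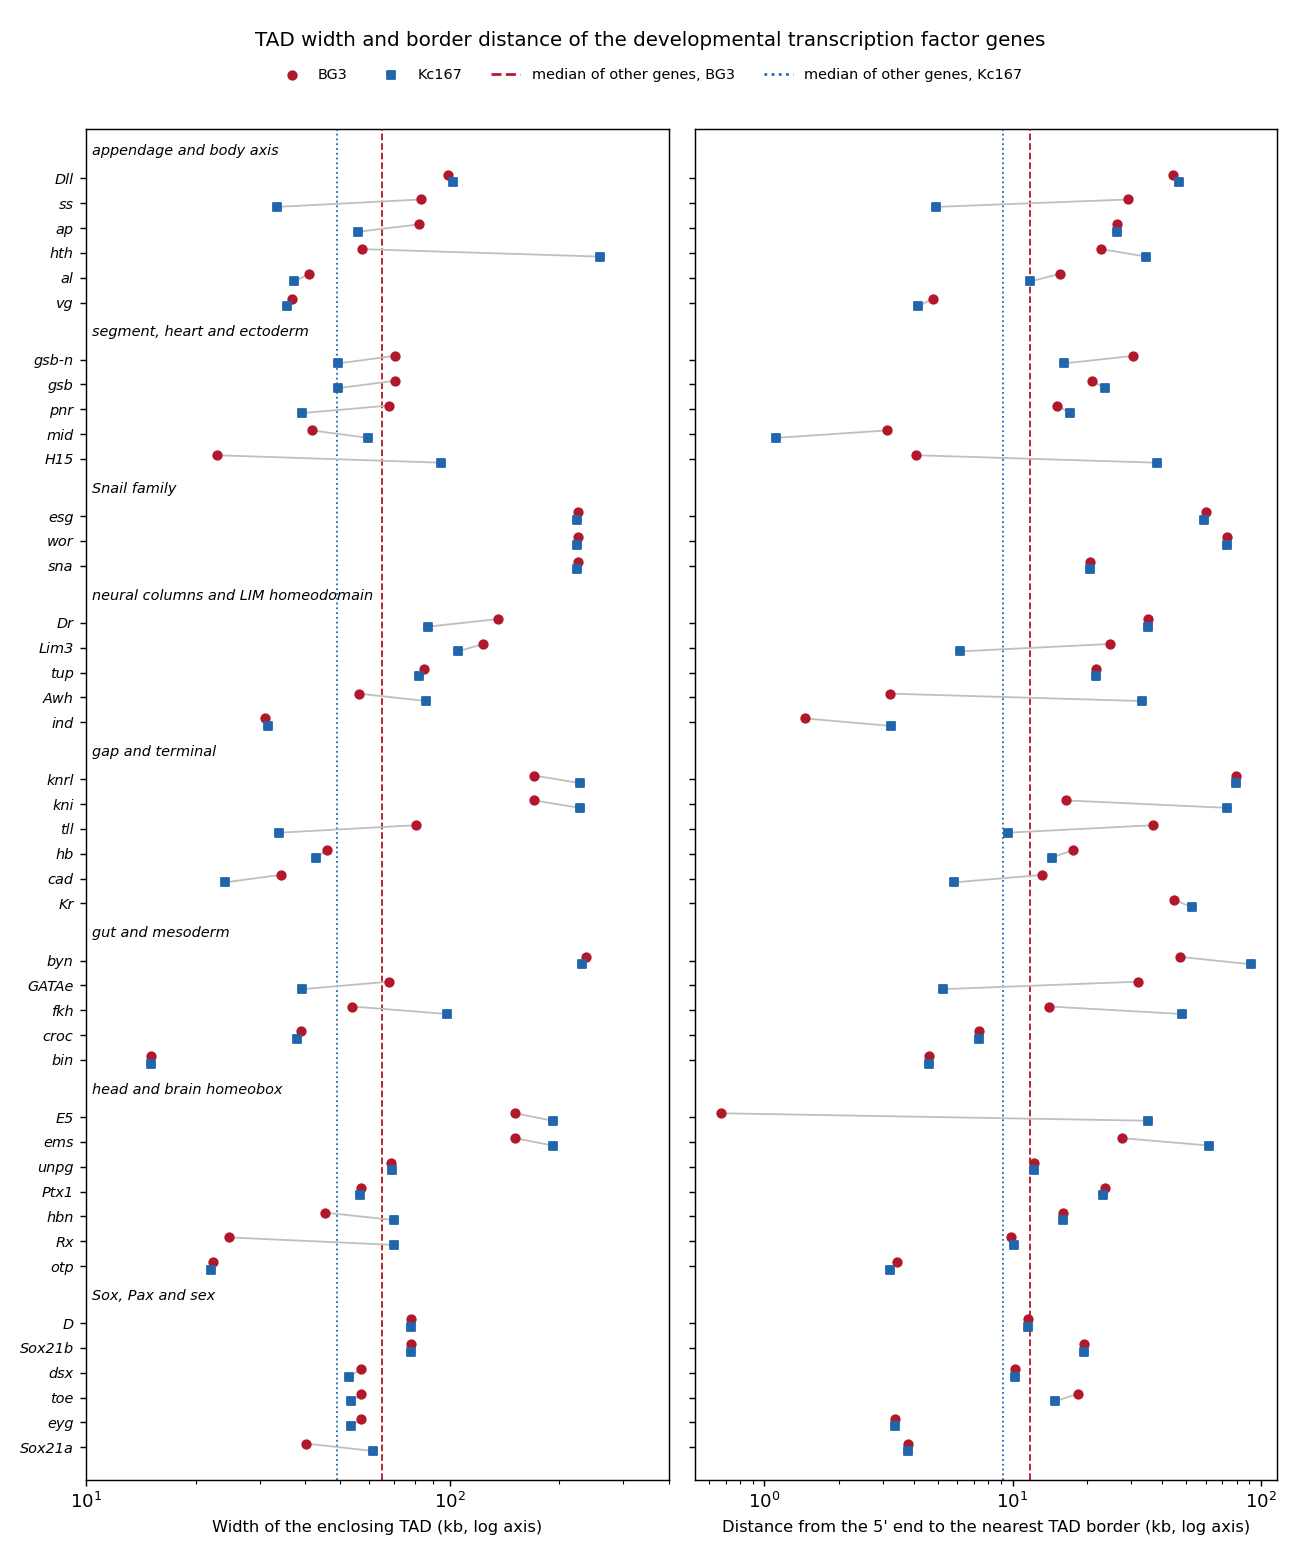
Width of the enclosing TAD (left) and distance from the 5' end to the nearest border (right) for each member, in kb on log axes, grouped by role; red circles are BG3, blue squares Kc167, and the vertical lines are the medians of other genes. Kr has no enclosing TAD and shows a distance alone. The longest connecting lines on the left are those of hth, H15, Rx, ss and tll.

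Between the maps the TAD of most members changed at 1 end or both. It was kept, with both ends within 2 kb, for 11 of the 42 members with a TAD in both maps, against 20.5% of other genes: esg, wor, sna, unpg, vg, otp, bin, Sox21b, D, croc and Ptx1. For bin, Sox21b and D the ends were identical. The TAD was at least 1.5 times wider in BG3 for 5 members (11.9%: ss, tll, GATAe, pnr and Dr), against 33.1% of other genes, and at least 1.5 times wider in Kc167 for 7 (16.7%: hth, H15, Rx, fkh, hbn, Awh and Sox21a), against 16.8%. TADs much wider in BG3 were thus less frequent among the members than among other genes, and TADs much wider in Kc167 about as frequent. These counts are of genes, not of TADs. In both maps esg, wor and sna shared 1 TAD, as did Sox21b and D, and GATAe and pnr. Rx and hbn shared 1 in Kc167. The nearest border was the same site in both maps for 14 members (32.6%), against 23.6% of other genes. Kr, a gap gene with a zinc finger protein near the end of its arm, lay beyond the last border of both maps, 44.7 kb from it in BG3 and 52.8 kb in Kc167, and had no enclosing TAD.

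The appendage genes showed the largest single change of width. The TAD of hth, which encodes the cofactor that carries Extradenticle into the nucleus, was 57.3 kb wide in BG3 and 258 kb in Kc167, a BG3 to Kc167 ratio of 0.222, the smallest of the 42. In the stringent list the widths were closer, 203 kb in BG3 and 258 kb in Kc167. In BG3 a border crossed the hth gene, which is 132 kb long, and the gene had 3 loops of 20 kb, 22 kb and 56 kb, against 1 loop of 38 kb in Kc167. The 20-kb and 56-kb loops lay across that border from the 5' end, outside the 57.3-kb TAD. The 56-kb loop had 53 observed contacts, 3.06 times the expected number (95% interval 2.29 to 4.0), where the expected number is that of the donut of pixels around the loop and the exact Poisson interval covers counting error only. Each loop has q-values for 4 neighbourhoods. The largest was 0.0167 for the 56-kb loop, 0.0184 for the 22-kb loop and 0.00389 for the 20-kb loop, against 0.00682 for the Kc167 loop. The opposite extreme was ss, a bHLH-PAS factor that specifies antennal identity, with a TAD of 83.3 kb in BG3, against 33.4 kb in Kc167 and a ratio of 2.49. In Kc167 a border fell inside ss, 4.90 kb from its 5' end, against 29.3 kb to the nearest border in BG3, and each map had 1 loop of 18 kb at ss, at different sites. The Kc167 loop counted as shared, because another BG3 loop, with no anchor within 2 kb of ss, lay within 10 kb of both its anchors.

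The other appendage genes had TADs of similar width in both maps or somewhat wider ones in BG3. Distal-less (Dll), the homeodomain factor of distal limbs, lay in a TAD of 98.9 kb in BG3, against 102 kb in Kc167, with a 20-kb loop in BG3 to the 5' end of CG3650 (210 contacts, ratio 1.83, interval 1.59 to 2.09) and none in Kc167. The wing selector vg, a cofactor of Scalloped, had the same 20-kb loop pixel in both maps, with 62 contacts and a ratio of 2.18 (1.68 to 2.80) in BG3 and 149 contacts and a ratio of 2.30 (1.94 to 2.70) in Kc167. The ratios of vg overlapped, and Kc167 had a second loop of 58 kb there, from the same anchor to Mdr49, an ABC transporter gene, across a border. The LIM-homeodomain gene ap, which sets dorsal wing fate, had a 20-kb loop in BG3 (47 contacts, ratio 2.16) and none within 2 kb in Kc167, although a Kc167 loop lay within 10 kb of both its anchors. For al, a homeodomain gene of leg and antenna tips, a 48-kb loop to CG43755 was in the Kc167 list alone (86 contacts, ratio 2.30) and crossed a border.

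Among the genes of segments, heart and ectoderm, 1 pair was joined by a loop and 1 pair was parted by a border in both maps. The Pax genes gsb-n and gsb, neighbours that act in segment polarity and in neurons, stand 9.63 kb apart and shared a TAD of 70.5 kb in BG3, against 49.3 kb in Kc167. A loop ran from inside gsb-n to gsb in both maps, 16 kb long in BG3 with 104 contacts and a ratio of 1.75 (1.43 to 2.12), and 18 kb long in Kc167 with 113 contacts and a ratio of 1.77 (1.46 to 2.12). The T-box genes H15 and mid, which act in heart and epidermis, are 57.4 kb apart and lay in different TADs in both maps. The border between H15 and mid was at another site in each map, and so was the other end of the H15 TAD. That TAD was 22.8 kb wide in BG3 and 94.5 kb in Kc167, a ratio of 0.242, while the TAD of mid was 41.7 kb in BG3 and 59.5 kb in Kc167. Neither gene had a loop.

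GATAe, a GATA factor of the midgut, and pnr, a GATA factor of dorsal ectoderm and heart, are 17.0 kb apart and were joined in both maps. The loop was 22 kb long in BG3, with 87 contacts and a ratio of 3.21 (2.57 to 3.96), and 28 kb long in Kc167, with 209 contacts and a ratio of 2.63 (2.29 to 3.01). Its anchors lay inside both genes, in BG3 3.90 kb downstream of the GATAe start and 8.92 kb downstream of the pnr start, at the stretches shown above. The common TAD was 68.1 kb wide in BG3 and 39.3 kb in Kc167, a ratio of 1.73, and in BG3 its right border fell within pnr.

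The Snail family genes stood in 1 of the widest TADs, and it was kept between the maps. The zinc finger genes esg, of stem cells and imaginal cells, wor, of neuroblasts, and sna, of the mesoderm, shared a TAD of 225 kb in BG3, against 224 kb in Kc167 with 13 protein-coding genes in each map. In the stringent list it was not kept, and the TAD of these genes was 1164 kb wide in BG3, against 472 kb in Kc167. None of the 3 had a loop in BG3. In Kc167 a 92-kb loop joined esg and wor, which are 91.7 kb apart, with 68 contacts and a ratio of 2.94 (2.28 to 3.72), and a second loop of 16 kb ran from the 5' end of sna to a site upstream of it (58 contacts, ratio 2.12, interval 1.61 to 2.74). The esg to wor loop was the only loop between members that was in 1 list alone, and whether BG3 lacks it or had too few contacts to call it was not tested.

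Of the factors of neural columns and the LIM-homeodomain genes, tup and Dr kept their nearest border and changed at the other end. The TAD of tup, the fly Islet gene of motor neurons and heart, was 84.9 kb in BG3 and 82.1 kb in Kc167, with a 20-kb loop in Kc167 alone (56 contacts, ratio 2.14). For Dr, which marks the lateral column of the neuroectoderm, it was 135 kb in BG3 and 87.3 kb in Kc167, a ratio of 1.55, with no loop. Lim3, another motor neuron factor, had a 22-kb loop with both anchors in the gene or within 2 kb of it in BG3 (91 contacts, ratio 2.34, interval 1.88 to 2.87). In Kc167 its only loop was 62 kb long and crossed a border, with 70 contacts and a ratio of 3.69 (2.88 to 4.67), the highest among the members' loops in that map. The interval of that ratio did not overlap the BG3 one, but the 2 loops had different anchors and are different contacts.

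Awh, a LIM-homeodomain gene of imaginal cells, had a TAD of 56.1 kb in BG3, against 86.1 kb in Kc167, and a border 3.21 kb from its 5' end in BG3 against 33.2 kb in Kc167. Its BG3 loop was 44 kb long and ran from the 5' end to Fie (53 contacts, ratio 3.15, interval 2.36 to 4.12), whereas the Kc167 loop was 16 kb long and lay farther downstream (70 contacts, ratio 2.02, interval 1.58 to 2.56). The homeodomain gene ind, of the intermediate column, had a TAD of 31.1 kb in BG3, against 31.7 kb in Kc167. These TADs overlapped little, because ind lay 1.46 kb from the right end of the BG3 TAD and 3.23 kb from the left end of the Kc167 TAD, and its TAD held 3 genes in BG3 and 12 in Kc167. A loop of 16 kb from the 5' end of ind crossed that Kc167 border (107 contacts, ratio 1.76, interval 1.45 to 2.13), and BG3 had none.

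The gap and terminal genes, which subdivide the early embryo, included the longest of the members' loops that both maps shared. The orphan nuclear receptors knrl and kni, partly redundant neighbours 74.7 kb apart, shared a TAD of 170 kb in BG3, against 228 kb in Kc167. A 74-kb loop joined the 2 genes near their 5' ends in both maps, with 40 contacts and a ratio of 2.73 (1.95 to 3.72) in BG3, and 92 contacts and a ratio of 2.37 (1.91 to 2.90) in Kc167, so that the intervals overlapped. In BG3 the 5' ends of both genes fell inside the anchors, next to the stretches shown above, and in Kc167 the anchors were 1 bin away, 1.66 kb downstream of the knrl start and 2.38 kb downstream of the kni start. In BG3, knrl had 2 more loops, of 30 kb (53 contacts, ratio 2.48) and 22 kb (52 contacts, ratio 2.25), that were not in the Kc167 list.

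The other genes of this group that had a TAD lay in a narrower one in Kc167 than in BG3. The TAD of tll, the nuclear receptor of the embryo's ends and of the brain, was 80.6 kb in BG3 with 9 genes and 34.0 kb in Kc167 with tll alone, a ratio of 2.37, and it had no loop. For hb, a zinc finger factor of anterior segments and early neuroblasts, it was 46.0 kb in BG3 and 42.8 kb in Kc167, and a loop of 102 kb, the longest of all the members' loops, crossed a border in Kc167 (48 contacts, ratio 2.74, interval 2.02 to 3.63). For cad, the posterior homeodomain factor, it was 34.3 kb in BG3 and 24.0 kb in Kc167, and an 18-kb loop in Kc167 had 283 contacts, the most of any member, with a ratio of 2.84 (2.52 to 3.19). The near anchors of these Kc167 loops lay outside hb and cad, within 2 kb beyond their downstream ends. Neither hb nor cad had a BG3 loop.

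The gut and mesoderm genes held the narrowest TAD of all members and 1 of the widest. The TAD of bin, a forkhead gene of visceral mesoderm, was 15.03 kb wide and identical in both maps, with 3 genes, a border 4.60 kb from the 5' end and no loop. That of byn, the fly Brachyury of the hindgut, was 236 kb in BG3, the widest there, and 230 kb in Kc167, and an 86-kb loop to CG12521 was in the Kc167 list alone (42 contacts, ratio 2.30). The TAD of croc, a forkhead gene of the head, was 38.9 kb in BG3 and 38.0 kb in Kc167, and the same 16-kb loop pixel was called in both maps. It had 115 contacts and a ratio of 2.63 (2.17 to 3.16) in BG3, and 176 contacts and a ratio of 2.06 (1.77 to 2.39) in Kc167. The far anchor of croc held no gene start within 2 kb, and its stretch is shown above. For fkh, the FoxA gene of gut and salivary gland, the TAD was 53.9 kb in BG3 and 97.9 kb in Kc167, a ratio of 0.551, and a loop from the same near anchor was 34 kb long in BG3 (53 contacts, ratio 2.81) and 28 kb long in Kc167 (75 contacts, ratio 2.05).

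The homeobox genes of head and brain had the fewest loops in Kc167, where 1 of 7 had an anchor, against 3 of 7 in BG3. E5 and ems, of the head and nervous system, are 26.9 kb apart, and their 5' ends shared a TAD of 151 kb in BG3, against 192 kb in Kc167. In BG3 the left border of that TAD fell inside E5, 670 bp from its 5' end. Most of the 7.57-kb E5 gene thus lay outside the TAD of ems there. A loop from the same anchor at ems was 16 kb long in BG3 (90 contacts, ratio 1.81, interval 1.46 to 2.23) and 24 kb long in Kc167 (138 contacts, ratio 2.66, interval 2.23 to 3.14). Its other anchor lay between the 2 genes in both maps. E5 itself had a 20-kb loop in BG3 on the other side of the border near its 5' end (62 contacts, ratio 2.12), and none in Kc167. Ptx1, of midgut and neurons, kept a TAD of 56.9 kb in BG3, against 56.5 kb in Kc167 and had a 20-kb loop in BG3 alone (52 contacts, ratio 1.82, interval 1.36 to 2.39).

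The neighbouring homeobox genes otp, Rx and hbn, which act in brain and hindgut development, were separated by borders. In BG3 each had a TAD of its own, of 22.3 kb, 24.7 kb and 45.3 kb. In Kc167 otp had a TAD of 22.1 kb, and Rx and hbn shared one of 70.3 kb. A border lay between otp and Rx in both maps, upstream of the 5' end of otp, and the one between Rx and hbn was in the BG3 list alone. In the stringent list otp, Rx and hbn were separated in BG3 and shared a TAD of 92.4 kb in Kc167. None of the 3 genes had a loop, nor did unpg, a homeobox gene of trachea and brain with a TAD of 68.9 kb in BG3, against 69.3 kb in Kc167.

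Among the Sox and Pax genes and dsx, most TADs were of similar width in both maps, and only the dsx loop was in both lists. The SoxB genes Sox21b and D, 47.3 kb apart, shared a TAD of 78.2 kb that was identical in both maps, and Sox21a, 23.2 kb from Sox21b, lay beyond its left border in both, in a TAD of 40.1 kb in BG3, against 61.6 kb in Kc167. D, a factor of segmentation and neural stem cells, had a loop from the same near anchor in both maps, 40 kb long in BG3 (62 contacts, ratio 2.25) and 26 kb long in Kc167 (77 contacts, ratio 1.98), with far anchors too distant from each other to count as shared. Sox21a, which acts in intestinal stem cells, had a 26-kb loop to btl, an FGF receptor gene, in Kc167 alone (42 contacts, ratio 3.06, interval 2.21 to 4.14). The near anchor of that loop lay outside Sox21a, within 2 kb beyond its downstream end. The Pax genes toe and eyg, 35.4 kb apart, shared a TAD of 57.0 kb in BG3, against 53.5 kb in Kc167, where their right border was the same. A 48-kb loop in BG3 ran from eyg to ArfGAP1 with 72 contacts and a ratio of 3.67 (2.87 to 4.63), the highest of the BG3 loops of members, and Kc167 had no loop at either gene. The sex determination gene dsx had a loop with both anchors in the gene in each map, 30 kb long in BG3 (52 contacts, ratio 2.89, interval 2.16 to 3.79) and 26 kb long in Kc167 (141 contacts, ratio 2.12, interval 1.78 to 2.50).

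**Figure D4:**
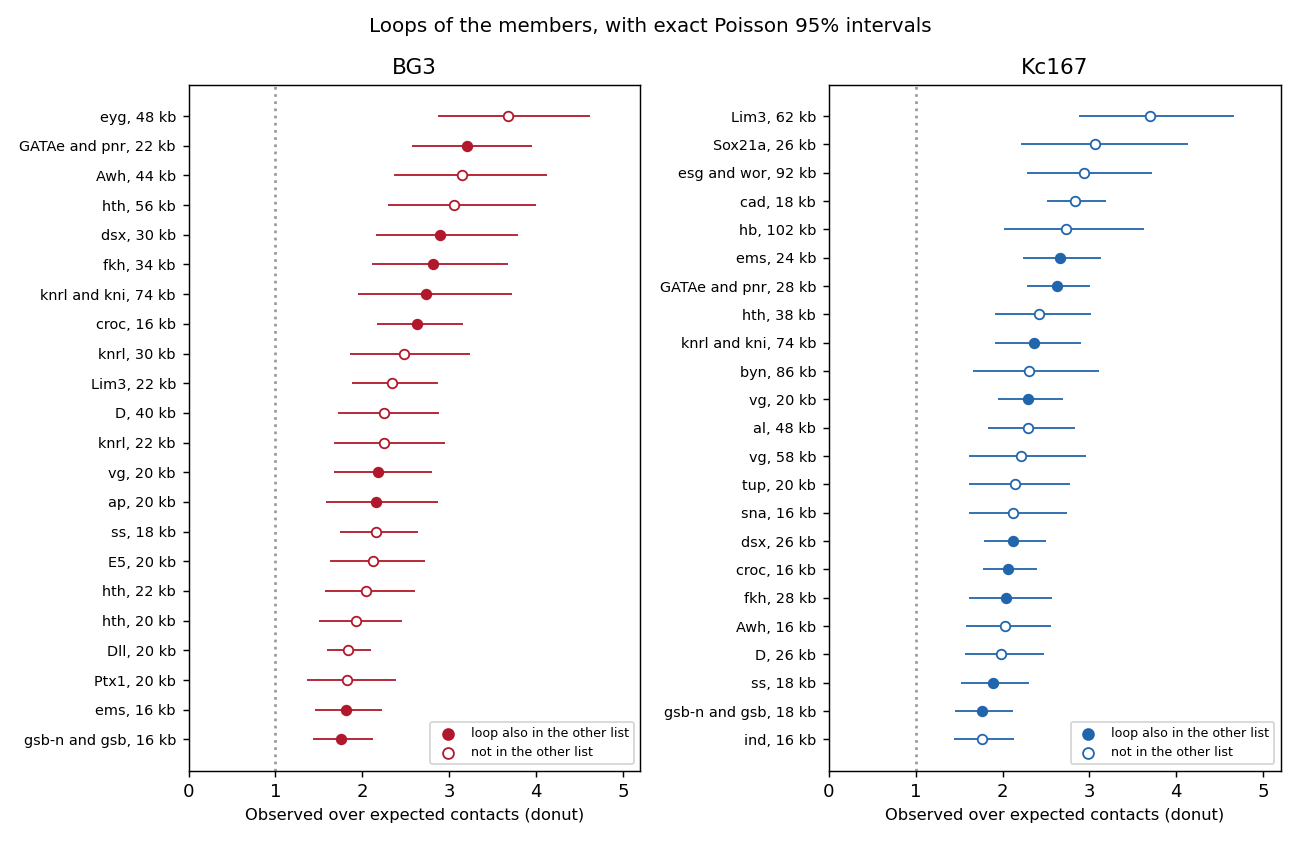
Observed over expected contacts (donut neighbourhood) of the 22 loops of members in BG3 (left) and the 23 in Kc167 (right), with exact Poisson 95% intervals on the observed contacts; filled points are loops also found in the other list, with both anchors within 10 kb, and the dotted line marks a ratio of 1. The highest points are eyg at 3.67 in BG3 and Lim3 at 3.69 in Kc167.

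In all, the members had 22 loops in BG3 and 23 in Kc167. The largest of a loop's 4 q-values was above 0.01, though within the limit of 0.05, for 9 of the 22 and 3 of the 23. In BG3 these were the loops of vg, D, E5, ems, fkh and Ptx1. The 30-kb loop of knrl and the 22-kb and 56-kb loops of hth were the others there. In Kc167 they were the loops of byn and fkh and the 58-kb loop of vg. This share was not taken among other loops. Every one of the 22 BG3 loops lay within 1 TAD, against 75.9% of other BG3 loops, and 18 of the 23 Kc167 loops did, against 63.1%. Other loops include longer ones. Among other loops of the same range of lengths, 16 to 74 kb in BG3 and 16 to 102 kb in Kc167, 85.4% lay within 1 TAD in BG3 and 73.8% in Kc167. The 5 that crossed a border were those of al, Lim3, vg, ind and hb, all in Kc167. The range of lengths was set after the values were seen.

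By their medians, the members' loops were shorter and lower in ratio than all other loops, with more contacts. Their median length was 22 kb, against 26 kb, in BG3 and 26 kb, against 30 kb, in Kc167. The median ratio was 2.25, against 2.71 for other loops, in BG3 and 2.30, against 2.48, in Kc167, and they held a median of 62 observed contacts, against 51, in BG3 and 78, against 63, in Kc167. Among other loops of the same range of lengths as the members' loops, the median ratio was 2.57 in BG3 and 2.38 in Kc167, so that in Kc167 the members' 2.30 was close to it. Loops are called on this ratio, so its values describe the calls. In each map 9 loops were shared with the other list, 40.9% of the BG3 loops, against 38.3% of other loops, and 39.1% of the Kc167 loops, against 23.2%. Among other loops of the same range of lengths the shared part was 41.0% in BG3, about that of the members, and 26.2% in Kc167. Seen from the first member of each loop along the arm, the far anchor had no gene start within 2 kb in 15 of the BG3 loops and 16 of the Kc167 loops. These counts include loops with both anchors at the same gene. They were not taken for other loops, so they only describe the members.

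Neighbouring members were joined by loops more often than other neighbours. The 43 genes formed 15 pairs less than 100 kb apart, with 23 members in them. A loop joined 3 of the 15 pairs in BG3 (gsb-n and gsb, knrl and kni, GATAe and pnr), against 0.916% of pairs of other genes. It joined 4 in Kc167 (the same 3, and esg and wor), against 1.24%. Restricted to pairs of other genes 9.63 to 91.7 kb apart, the range of the members' pairs, the shares were 1.0% in BG3 and 1.37% in Kc167. These pairs were matched for distance alone, and the members were longer, with a median of 8.86 kb against 2.16 kb. The part of gene length in the joined pairs was not tested. The 5' ends of a pair lay in 1 TAD for 8 pairs in BG3, against 40.7% of pairs of other genes, and for 9 in Kc167, against 34.8%. Among the 8 were E5 and ems, although most of E5 lay outside that TAD in BG3. The pair that differed was Rx and hbn. Each of the joined pairs lay in 1 TAD in both maps, and pairs of related genes such as Sox21a and Sox21b or H15 and mid were parted by a border in both. These parting borders were not in the stringent list, where Sox21a and Sox21b shared 1 TAD in both maps, as did H15 and mid.

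**Figure D5:**
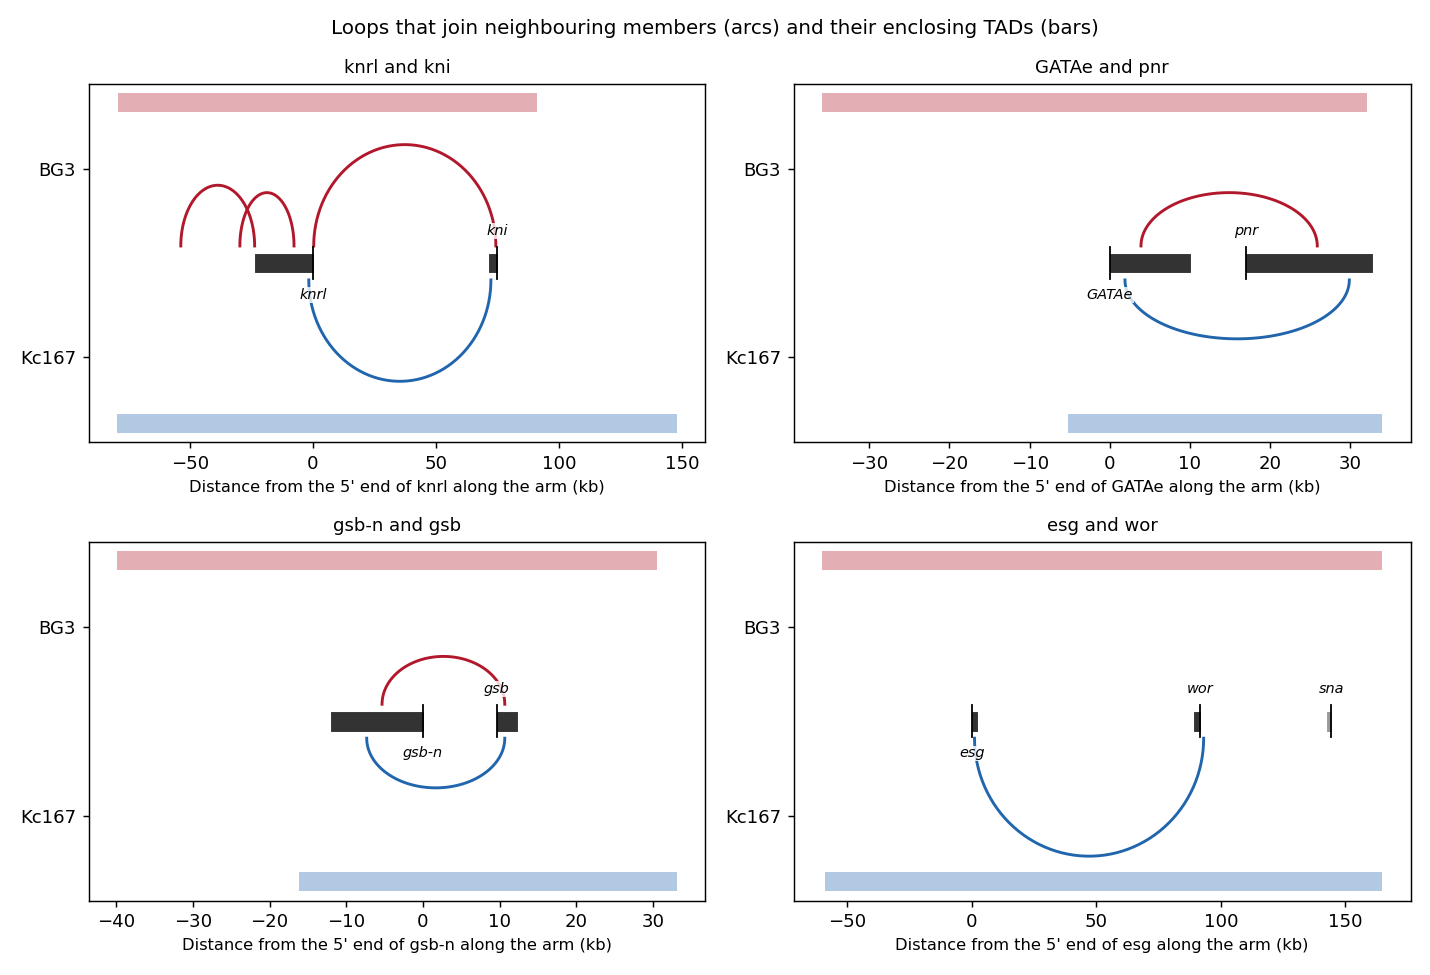
Loops that join neighbouring members, drawn as arcs above the genes for BG3 (red) and below them for Kc167 (blue), against the distance from the 5' end of the first gene in kb; dark boxes are genes, black ticks their 5' ends, and the pale bars the enclosing TADs. The panels of knrl and kni, GATAe and pnr, and gsb-n and gsb have an arc between the genes in both maps, and the panel of esg and wor has one in Kc167 alone. All loops of the 2 named genes are drawn, which adds 2 BG3 arcs at knrl, and the height of an arc only follows its length.

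The members' share with a loop was near that of pair-rule genes and above that of ribosomal protein genes. A loop was found at 9 of 19 pair-rule and segmentation genes in BG3 and 10 of 19 in Kc167, and at 5 of 8 further retinal determination genes in BG3 and 6 of 8 in Kc167. Genes of the Polycomb group and its recruiters, which encode the regulators themselves, had a loop at 11 of 28 in BG3 and 10 of 28 in Kc167. Cytoplasmic ribosomal protein genes, which are broadly active, had one at 12 of 86 in BG3 and 10 of 86 in Kc167. The lists differed in gene length, with a median of 8.86 kb for members and 1.34 kb for ribosomal protein genes. It was 4.2 kb for pair-rule, 16.9 kb for retinal and 7.35 kb for Polycomb group genes. The part of length in these shares was not tested. Borders within 2 kb of the 5' end were most frequent at the ribosomal protein genes among these lists. The ribosomal protein genes had one at 37 of 86 in BG3 and 36 of 86 in Kc167, and the Polycomb group genes at 4 of 28 in BG3 and 6 of 28 in Kc167. The retinal genes had one at 1 of 8 in each map, and the pair-rule genes at 1 of 19 in BG3 and 0 of 19 in Kc167, near the 2 of 43 members in BG3 and 1 of 43 in Kc167.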

How the data were processed

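In situ Hi-C libraries of BG3 and Kc167 cells, 2 biological replicates each, were aligned by the authors to dm6 with BWA 0.7.15-r1140, and Juicer 1.7.6 was used, per the submitters' processing notes. Replicates were merged, so 1 map per line was analysed. Per the methods, HiCExplorer called TADs on DpnII fragments at a score difference of 0.04 (permissive) and 0.08 (stringent), and HiCCUPS called loops at 2 kb and a false discovery rate of 0.05. The deposited TAD lists give borders and a TAD separation score, which was not used. The deposited loop lists give observed contacts as counts, the expected contacts as a signal, and q-values for 4 neighbourhoods.

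The members and lists were chosen with earlier results of these data known. A gene's 5' end (Ensembl 115, checked to fit dm6 lengths) was placed in a TAD, and its distance to the nearest border was taken. A loop counted when an anchor overlapped the gene widened by 2 kb, loops were shared when both anchor midpoints lay within 10 kb, and a TAD was kept when both ends lay within 2 kb. Values are given for members with a loop, with a border within 2 kb, or at either extreme of width or width ratio, and genes outside the list are named only at the far anchor of a member's loop. No test was made. The readers were tested on simulated lists. Depth is given by the observed contacts of each loop, with exact Poisson intervals at 95%. Python 3.11.15, NumPy 2.4.6, pandas 2.3.3, SciPy 1.17.1 and Matplotlib 3.10.9 were used.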

Additional observations from a re-analysis of the deposited data

How the results depend on the processing

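Of 52 alternative values, 32 stayed within 1.5 times the value reported, among them the members with a loop anchor at 0, 5 or 10 kb around the gene, with stricter q-values, with loops of at most 1 Mb, with 1 member per cluster and without arm 2R. The share of other genes rose with the distance around the gene. At 0 kb, 21 members had a loop in BG3, against 10.1% of other genes, and 22 in Kc167, against 14.6%. At 10 kb the counts were 26 in BG3, against 31.7%, and 30 in Kc167, against 45.0%. With 1 member per cluster, 14 of 30 had a loop in BG3 and 19 of 30 in Kc167. Without arm 2R, 16 of 33 members had one in BG3, against 14.5% of other genes, and 23 of 33 in Kc167, against 24.4%. Members with a loop at the 5' end alone numbered 10 in BG3 and 15 in Kc167. Members with a border numbered 1 in BG3 and 0 in Kc167 at 1 kb (against 11.9% and 14.4% of other genes), 10 in BG3 and 8 in Kc167 at 5 kb (against 29.1% and 34.3% of other genes), 1 in BG3 and 0 in Kc167 with the stringent list, and 0 in Kc167 with 1 member per cluster. With the stringent list the median width was 151 kb in BG3 and 178 kb in Kc167, and the median distance 36.8 kb in BG3 and 32.2 kb in Kc167. The TAD was kept for 3 members at 20 bp (7.0% of other genes), 18 at 5 kb (27.1%), 19 at 10 kb (32.6%) and 2 with the stringent list (7.31%). Shared loops numbered 4 in BG3 and 4 in Kc167 with anchors within 2 kb, and 15 in BG3 within 20 kb. With 1 member per cluster, H15 stood for its locus in place of mid, the member with the Kc167 border. No paired analysis was possible because the replicates were merged before TADs and loops were called, and for the same reason no replicate could be left out. Loops rest on 40 to 283 observed contacts at members, so a loop missing from a list may be one with too few contacts to be called.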
